A study of Mus musculus with 14 samples.

Results

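The RNA levels of 10 genes that build the embryonic kidneys were followed in mouse embryos: Wt1, Osr1, Emx2, Pax2, Pax8, Lhx1, Eya1, Six2, Gdnf and Sall1. They were taken by symbol from a table of raw read counts, and all 10 were found among its 53465 genes. All embryos were wild-type C57BL/6. The 14 libraries came from dorsal skin and from the AGM (aorta-gonad-mesonephros region), the trunk tissue that holds the dorsal aorta, the genital ridges and the mesonephros. Dorsal skin has 1 library for each of 4 ages (embryonic day E9.5, then E10.5, later E12.5, last E14.5) under sample titles beginning with E, and again under titles beginning with ES, with separate project numbers. These are called skin E and skin ES. AGM is labelled with 3 ages, E9.5, then E10.5, last E11.5, each with a library from both of 2 sequencing rounds. The second-round table columns carry numbers only, and their ages are assumed from the first-round numbers. Those labelled AGM E9.5 are described as the caudal part of the embryo, including PsP. The labels do not say whether libraries of one group came from separate embryos, so p-values measure the spread between these samples only. Libraries held 21527400 to 29534551 counts for AGM, 19929352 to 24003912 for skin E and 6770338 to 15440012 for skin ES. Levels are given in CPM, counts per 1000000 counts of the library. In bulk tissue, fewer cells of a type and less RNA per cell cannot be told apart.

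The intermediate mesoderm lies between the somites and the lateral plate. It forms the nephric duct, the transient mesonephros within the AGM, and later the metanephros, the permanent kidney. Osr1, Wt1 and Emx2 are transcription factors of the intermediate mesoderm and of the coelomic epithelium and urogenital ridge beside it. Pax2, Pax8 and Lhx1 specify and maintain the nephric duct. Eya1, Six2 and Sall1 act in the nephrogenic mesenchyme, the progenitors of nephrons, and Gdnf is the ligand that this mesenchyme sends to the receptor Ret on the duct. Most of these genes also work elsewhere: Pax2, Pax8 and Lhx1 in spinal cord neurons, Osr1, Six2 and Emx2 in limb and body wall mesenchyme, and Sall1 in the neural tube, limb and tailbud.

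On the mouse GRCm38 genome, the gene models lie as follows. Wt1 (ENSMUSG00000016458) spans chr2:105126529-105173616 and Pax8 (ENSMUSG00000026976) chr2:24420560-24475599. Osr1 (ENSMUSG00000048387) spans chr12:9570116-9581500. Emx2 (ENSMUSG00000043969) spans chr19:59458372-59465357 and Pax2 (ENSMUSG00000004231) chr19:44756045-44837871. Lhx1 (ENSMUSG00000018698) spans chr11:84518284-84525535, Eya1 (ENSMUSG00000025932) chr1:14168954-14310235 and Six2 (ENSMUSG00000024134) chr17:85684277-85688274. Gdnf (ENSMUSG00000022144) spans chr15:7811011-7837575 and Sall1 (ENSMUSG00000031665) chr8:89027235-89044162. Emx2 shares 264 exon bases with the antisense gene Emx2os, and the sources used here do not give the strand setting of the counting, so reads of the pair may be mixed. Emx2os itself had 11.9 and 12.7 CPM in the AGM libraries labelled E9.5 and at most 1.35 CPM in those labelled E11.5. Pax8 shares 367 exon bases with the antisense gene Gm13415, which had at most 4 counts in any library.

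The promoters of 4 members are shown because these genes differed in opposite directions in AGM: Six2 and Gdnf were lower, and Lhx1 and Sall1 higher, in the libraries labelled E11.5 than in those labelled E9.5. Each is the 250 bases before a start site in RefSeq (GRCm38.p6), read 5′ to 3′ on the strand of the gene. Capitals mark matches, on either strand, to GGGCGG (the GC box), CCAAT and TATAAA.
Six2, chr17:85688255-85688504, minus strand: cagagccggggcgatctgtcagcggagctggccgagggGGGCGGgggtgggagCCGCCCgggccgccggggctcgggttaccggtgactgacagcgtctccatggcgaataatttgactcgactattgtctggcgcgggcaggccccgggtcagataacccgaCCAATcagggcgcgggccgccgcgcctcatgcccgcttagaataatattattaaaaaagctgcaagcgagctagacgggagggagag
Gdnf, chr15:7809798-7810047, plus strand: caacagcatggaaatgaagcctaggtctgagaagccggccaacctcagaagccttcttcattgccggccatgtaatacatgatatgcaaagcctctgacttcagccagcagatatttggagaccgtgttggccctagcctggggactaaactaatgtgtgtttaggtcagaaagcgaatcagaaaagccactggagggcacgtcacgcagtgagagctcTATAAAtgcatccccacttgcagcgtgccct
Lhx1, chr11:84525535-84525784, minus strand: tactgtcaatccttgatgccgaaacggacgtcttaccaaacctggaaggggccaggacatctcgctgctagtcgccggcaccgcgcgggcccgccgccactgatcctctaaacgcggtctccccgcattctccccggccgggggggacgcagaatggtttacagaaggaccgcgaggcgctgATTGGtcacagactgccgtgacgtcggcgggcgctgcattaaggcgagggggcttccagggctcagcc
Sall1, chr8:89044163-89044412, minus strand: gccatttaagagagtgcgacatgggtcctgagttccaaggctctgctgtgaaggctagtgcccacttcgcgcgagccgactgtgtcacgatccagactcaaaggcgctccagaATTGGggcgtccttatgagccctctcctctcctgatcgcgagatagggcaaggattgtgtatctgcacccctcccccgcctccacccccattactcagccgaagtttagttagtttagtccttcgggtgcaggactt
The Six2 and Lhx1 windows each held 26 CpG dinucleotides and 64.8% G and C, against medians of 6.0 and 52.4% over 32851 RefSeq windows of this length. The Sall1 window held 13 CpG and 56.4% G and C, and the Gdnf window 7 CpG and 50.8%. CCAAT was matched once each in the Six2, Lhx1 and Sall1 windows and in 33.8% of all windows, and the GC box 2 times in Six2 and in 32.7% of all windows. TATAAA was matched once in the Gdnf window, close to its start site, and in 12.4% of all windows. GCGTGGG, a WT1 and EGR type motif found in 4.30% of all windows, was in none of the 4. Gdnf and Sall1 have other RefSeq start sites: 1 more Gdnf window held 14 CpG, and 2 more Sall1 windows held 25 and 30 CpG with 4 and 1 GC boxes, the latter also with 1 GCGTGGG match. A match describes letters and is not a binding site. RefSeq windows were found for 7 of the 10 members.

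2 sets of libraries stood apart and were checked against tissue markers first. The libraries labelled AGM E11.5 held tailbud RNA. Cdx4, a factor of the growing tail end, had 51.9 and 29.2 CPM there, against 0 and 0 in the libraries labelled E9.5 and 0 and 0.0387 in those labelled E10.5. The summed level of 5 tailbud genes (T, Cdx2, Cdx4, Wnt3a, Msgn1) was 85.0 to 165 CPM at labelled E11.5, 12.6 to 12.9 at E9.5 and 12.3 to 13.8 at E10.5. Of 8 neural genes, 6 were higher and 2 lower at labelled E11.5 than at E10.5. Pax6 and Sox1, of neural tube progenitors, were at 57.9 and 67.3 CPM and at 48.0 and 41.5 CPM, whereas Dcx, of young neurons, was at 5.80 and 8.27 against 39.0 and 52.6 CPM, and Tlx3 was also lower. Nr5a1, a factor of the genital ridge, had 2 counts and 0 counts there, but 17.0 and 13.4 CPM in the libraries labelled E9.5. Among all genes tested, 15.4% were lower and 11.8% higher at labelled E11.5 than at E10.5. Of 5 coelomic epithelium and gonad genes tested, 3 were lower at labelled E11.5 than at E10.5 and 2 did not pass. Gata4, of the same list, was at 20.1 and 12.4 CPM at labelled E11.5. The tailbud genes and Nr5a1 go against the labels: a caudal piece would be expected to hold the tailbud, and an E11.5 AGM the genital ridge. The groups are therefore called by their labelled ages throughout, and differences between them are differences between libraries so labelled.

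The skin ES libraries differed from skin E across the transcriptome. Their correlation with the skin E library of the same age was 0.625 to 0.716 on the log2(CPM + 1) scale over 15747 genes, while the AGM rounds of one age correlated at 0.993 to 0.995. The 6 red-cell genes summed to 0.148 to 0.340 CPM in skin ES, 2251 to 4800 in skin E and at least 9319 in AGM. The 6 keratinocyte genes summed to 3.24 to 8.57 CPM in skin ES and 26.1 to 4256 in skin E, with Krt14 at most 0.142 CPM in skin ES. The 6 dermal fibroblast genes summed to 5402 to 7749 CPM in skin ES. In skin E they summed to 889, 660, 6281 and 24330 CPM from the youngest to the oldest embryos. Skin E held other tissues in turn: the 8 neural genes summed to 504, 983, 340 and 59.0 CPM from the youngest to the oldest embryos. The 5 limb genes summed to 49.6, 18.0, 496 and 8.60 CPM in the same order, with Hoxd13 at 300 CPM and Tbx5 at 179 CPM at E12.5. Shh alone had 25.7 CPM at E9.5 and 16.9 CPM at E10.5. The part of neural and limb tissue in the results below was not tested.

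**Figure D1:**
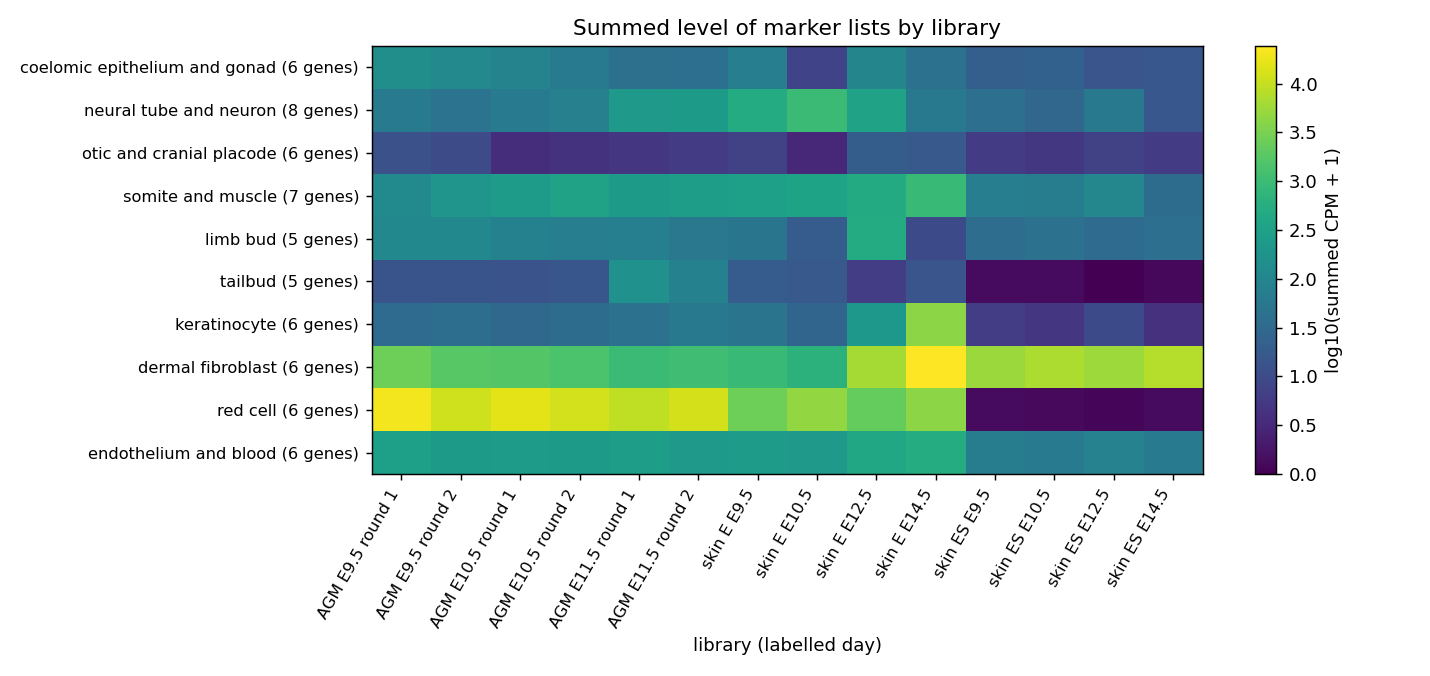
Summed CPM of each marker list, on a log10(CPM + 1) color scale, with lists in rows and the 14 libraries in columns. The tailbud row is brightest in the libraries labelled AGM E11.5 (85.0 to 165 CPM), and the red-cell row is dark in the 4 skin ES libraries (0.148 to 0.340 CPM).

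Osr1, Wt1 and Emx2, the factors of the intermediate mesoderm and coelomic epithelium, were high in AGM at labelled E9.5 and E10.5. Wt1, needed for the kidney and gonad to form, had 117 and 104 CPM in rounds 1 and 2 at E9.5, 86.4 and 78.0 CPM at E10.5, and 8.86 and 8.87 CPM at labelled E11.5. The 3 ages did not overlap. Osr1, among the earliest genes of the intermediate mesoderm, had 59.1 and 51.6 CPM, then 41.7 and 29.0 CPM, then 16.9 and 12.3 CPM. Emx2, a homeobox factor of the urogenital ridge, had 37.0 and 43.1 CPM, then 34.6 and 35.8 CPM, then 5.76 and 7.62 CPM. For all 3 genes the libraries labelled E11.5 lay below the other 4 AGM libraries. Here and below, overlap between groups of 2 libraries is description only, and the share of all genes without overlap is not given. Between labelled E10.5 and E9.5, 4 members were higher and 5 lower without overlap, though only Lhx1 passed the test given below.

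The duct factors did not share a pattern. Pax2 had 23.8 and 20.3 CPM at E9.5, 28.8 and 22.8 CPM at E10.5, and 8.78 and 6.50 CPM at labelled E11.5, so the first 2 ages overlapped and the third lay below. Its paralogue Pax8 had 8.26 and 7.03 CPM, then 12.2 and 11.504 CPM, then 5.40 and 7.11 CPM, highest in both rounds at E10.5. Lhx1, a LIM homeobox factor of the duct, had 5.82 and 4.73 CPM, then 11.7 and 10.4 CPM, then 12.49 and 10.9 CPM. The Lhx1 values at E10.5 and labelled E11.5 overlapped, and both lay above E9.5.

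Among the mesenchyme genes, Six2 and Gdnf were lowest at labelled E11.5 and Sall1 highest. Six2, which keeps nephron progenitors undifferentiated, had 53.3 and 36.1 CPM, then 29.6 and 23.9 CPM, then 7.86 and 8.87 CPM. Gdnf had 12.3 and 13.2 CPM, then 10.7 and 8.71 CPM, then 2.58 and 3.58 CPM. The 3 ages did not overlap for either gene. Eya1, a phosphatase and coactivator upstream of Six2 and Gdnf, had 50.5 and 53.7 CPM, then 63.9 and 69.0 CPM, then 36.9 and 41.4 CPM. Sall1, a zinc finger factor, had 46.2 and 42.9 CPM, then 60.9 and 61.0 CPM, then 231 and 179 CPM. Eya1 thus peaked at E10.5, whereas Sall1 was several times higher at labelled E11.5 than in the other 4 libraries.

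**Figure D2:**
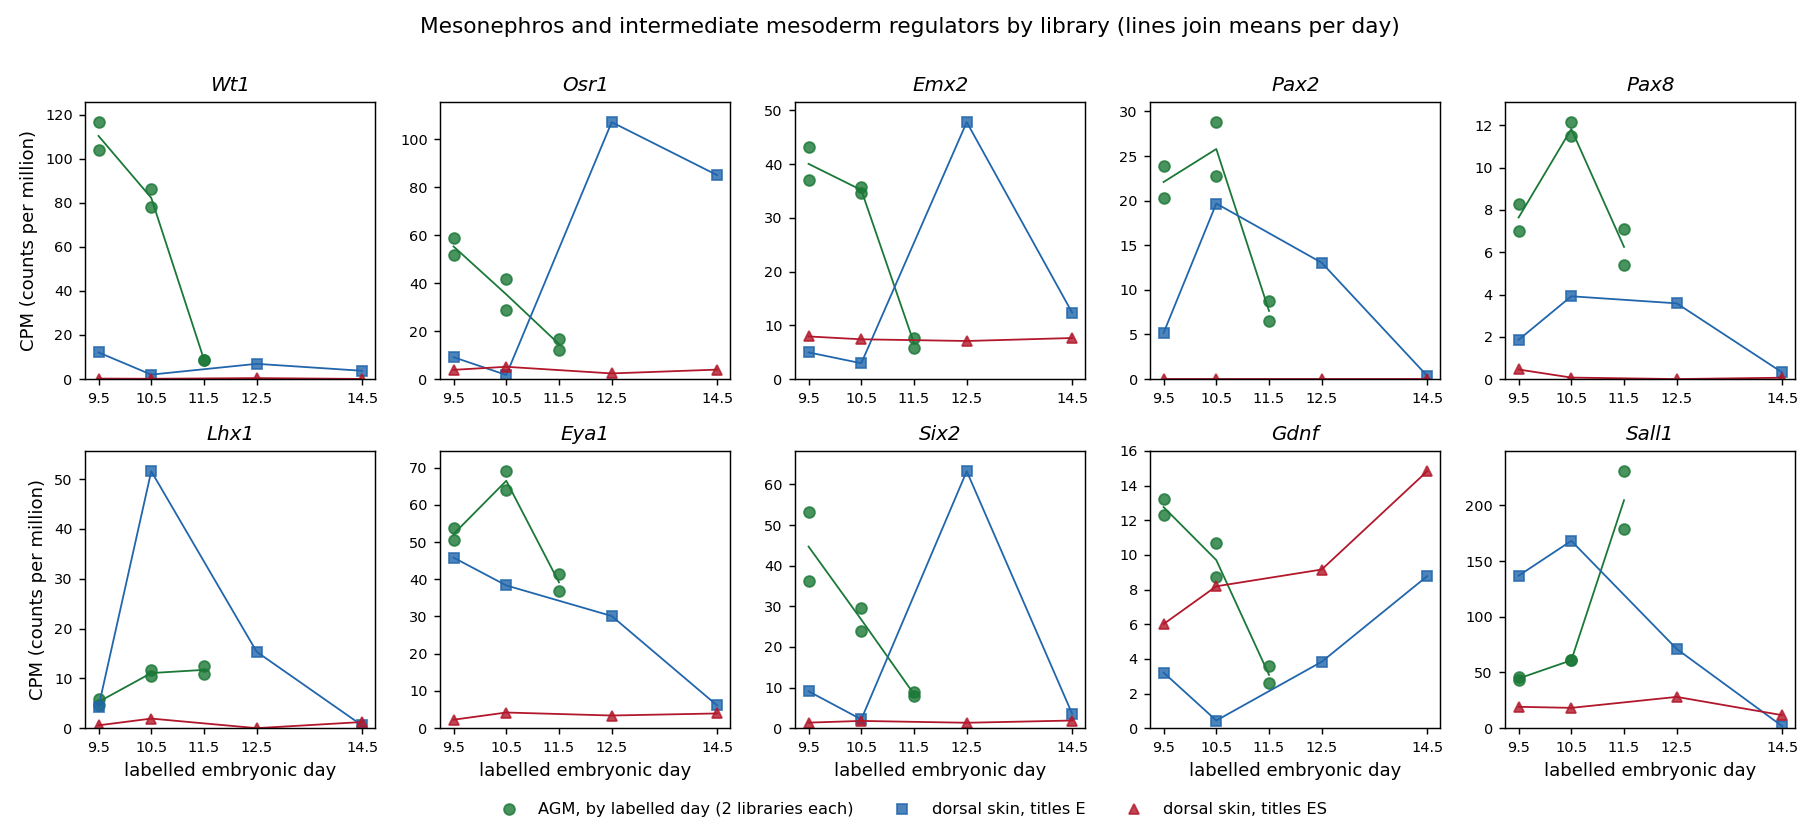
CPM of each of the 10 genes (vertical axis, linear, own scale per panel) against labelled embryonic day, with points for single libraries and lines through the mean per day: circles AGM, squares skin titled E, triangles skin titled ES. Wt1 in AGM lies at 117 and 104 CPM at E9.5 and at 8.86 and 8.87 CPM at labelled E11.5, and Sall1 runs the other way.

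To order the genes, CPM were divided by length, and the order depended on the length used. By the union of a gene's exons, at E9.5, Osr1 was first with 26.8 ± 2.56 CPM per kilobase (SD, n = 2), then Six2 with 21.1 ± 5.72, Wt1 with 17.8 ± 1.43 and Emx2 with 13.3 ± 1.44. The differences between Osr1 and Six2 and between Six2 and Wt1 lay within the SD of Six2. Lhx1 and Pax8 were last, at 1.30 ± 0.191 and 1.26 ± 0.144 CPM per kilobase. By the longest transcript instead, Wt1 was first at 35.7 ± 2.87, before Osr1 at 27.5 ± 2.63, and Pax8 at 2.26 ± 0.258 lay above Lhx1 at 1.37 ± 0.202. By exon union at E10.5, Osr1 was again first (17.1 ± 4.34), and Wt1, Six2, Emx2 and Sall1 followed at 13.3 ± 0.958, 12.6 ± 1.91, 11.7 ± 0.282 and 11.6 ± 0.0186 CPM per kilobase. Each of these neighbours lay within the SD of the one above or below it. By longest transcript, Wt1 led at 26.6 ± 1.92, followed by Osr1 at 17.6 ± 4.46 and Eya1 at 15.2 ± 0.832. Over all groups, 40 of 110 ranks moved with the length. In the libraries labelled E11.5, by exon union, Sall1 was first at 38.9 ± 6.99 CPM per kilobase, far above Osr1 at 7.06 ± 1.56, and Gdnf was last at 0.838 ± 0.192.

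The first question was how the members differed between the AGM libraries labelled E10.5 and E9.5, the latter described as caudal. Only Lhx1 passed the test. It was 2.17-fold higher at E10.5, by 1.12 ± 0.17 on the log2 scale (SE; edgeR's quasi-likelihood test with Benjamini-Hochberg adjustment, adjusted p = 0.0267). Of all 17613 genes tested, 2.59% passed, 0.874% higher and 1.72% lower. The Lhx1 call was lost when any 1 of the 4 libraries compared was left out: adjusted p was 0.108 without E9.5 round 1, 0.0556 without E9.5 round 2, 0.0927 without E10.5 round 1 and 0.128 without E10.5 round 2. Without the libraries labelled E11.5, 1 of the 10 members again passed. Markers of other tissues differed as well: 4 of 8 neural genes were higher at E10.5, with Sox1 at 1.35 and 1.43 against 0.0677 and 0.123 CPM and Neurog2 at 6.69 and 8.44 against 0.406 and 1.85 CPM. Of 5 coelomic epithelium and gonad genes tested 1 passed, Tcf21, which was lower. Of 6 fibroblast genes 1 passed, Dcn, also lower, and of 7 somite and muscle genes 1, Acta1, which was higher. The part of these tissues in the Lhx1 difference was not tested.

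The other 9 members missed the threshold. Pax8 differed by 0.68 ± 0.17 (adjusted p = 0.0823), Sall1 by 0.51 ± 0.13 (0.0931) and Eya1 by 0.41 ± 0.10 (0.0792), with E10.5 the higher. Six2 differed by -0.69 ± 0.19 (adjusted p = 0.107), Osr1 by -0.59 ± 0.21 (0.173) and Wt1 by -0.37 ± 0.10 (0.106), with E10.5 the lower. With the sequencing round as a block, these 6 genes passed as well: adjusted p was 0.00576 for Pax8, 0.000909 for Sall1, 0.000557 for Eya1, 0.00116 for Six2, 0.000435 for Osr1 and 0.000715 for Wt1. The block raised calls in general, from 457 to 4237 of 17613 genes. Gdnf, Pax2 and Emx2 did not pass in either fit. Sall1 also passed without labelled E11.5 round 1 (adjusted p = 0.0492) or round 2 (0.0453), and Six2 without E9.5 round 2 (0.0399). All 10 differences had the same sign in both rounds, but the group differences come from these same libraries, so this is no separate support.

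The members differed far more between the libraries labelled E11.5 and E10.5. 8 of them were lower at labelled E11.5, Sall1 was higher, and Lhx1 did not pass. Among all genes 27.2% passed, 15.4% lower and 11.8% higher. The members' median log2 difference was -1.38, against 0.00353 over all genes tested. Wt1 was 8.71-fold lower (log2 difference -3.12 ± 0.12, adjusted p = 9.6e-06) and Emx2 4.96-fold lower (-2.31 ± 0.16, adjusted p = 6.44e-05). Pax2 was 3.16-fold lower (adjusted p = 0.000816), Six2 3.01-fold (0.00135), Gdnf 2.98-fold (0.0012) and Osr1 2.27-fold (0.00562). The smallest called differences were those of Pax8, at 1.78-fold (adjusted p = 0.0105), and Eya1, at 1.59-fold (0.00241). Sall1 was 3.58-fold higher (1.84 ± 0.14, adjusted p = 9.43e-05). Lhx1 differed by 0.17 ± 0.17 (adjusted p = 0.482). The call of Pax8 was lost without E10.5 round 1 (adjusted p = 0.0533) and without labelled E11.5 round 1 (0.0635). The tailbud and neural genes and Nr5a1, given above, also differed between these libraries. The part of tailbud, neural and genital ridge cells in the members' differences was not tested.

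Against the libraries labelled E9.5, those labelled E11.5 were lower in 6 members and higher in 2, beside 45.2% of all genes passing (24% lower, 21.1% higher). Wt1 was 11.2-fold lower (-3.49 ± 0.12, adjusted p = 3.07e-06) and Emx2 5.43-fold lower (-2.44 ± 0.16, adjusted p = 2.51e-05). Six2, Gdnf, Osr1 and Pax2 differed by -2.27 ± 0.21, -1.91 ± 0.20, -1.77 ± 0.22 and -1.38 ± 0.20, each with an adjusted p of at most 0.000921. Sall1 was 5.09-fold higher (2.35 ± 0.14, adjusted p = 1.99e-05) and Lhx1 2.45-fold higher (1.29 ± 0.17, adjusted p = 0.000698). Pax8 differed by -0.15, with opposite signs in the rounds (-0.45 and 0.14). Eya1 differed by -0.27 ± 0.10 (adjusted p = 0.0628, and 0.00236 with the round as a block). The 2 comparisons with the libraries labelled E11.5 share those libraries.

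**Figure D3:**
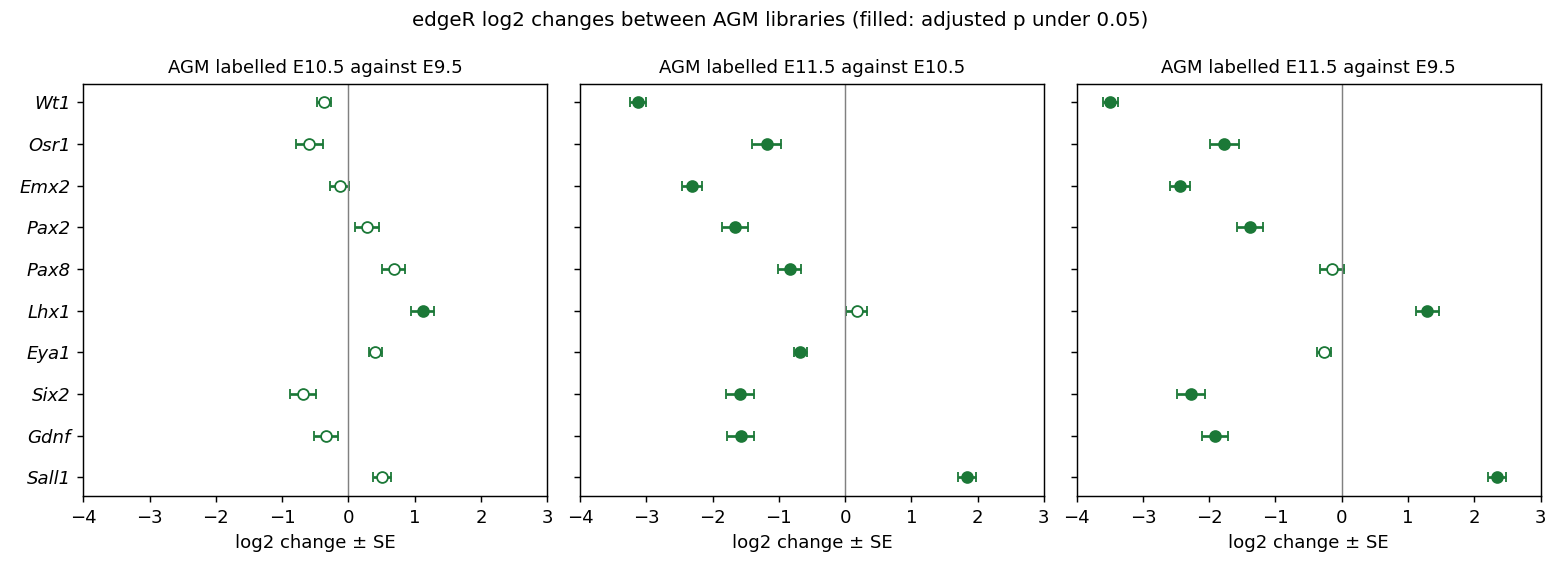
Log2 difference (horizontal axis, bars ± SE from the edgeR fit) for each of the 10 genes in the 3 comparisons among AGM libraries. Filled points have an adjusted p under 0.05: only Lhx1 is filled on the left, and Wt1 (-3.12) and Sall1 (1.84) are the extremes in the middle panel.

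The study's tissues could be compared at E9.5 and E10.5, where skin E has 1 library per age. Its spread was taken to be that of the AGM pairs, and tissue and sequencing project cannot be told apart. At E9.5, 7 members were higher in AGM, Sall1 was lower, and Lhx1 and Eya1 did not pass. Of 19945 genes tested, 33.9% passed, 18.0% higher in AGM and 15.9% lower. Wt1 was 8.80-fold higher (117 and 104 CPM against 12.1 in skin E, adjusted p = 1.27e-05), Emx2 7.77-fold (37.0 and 43.1 against 4.97 CPM, adjusted p = 7.39e-05) and Osr1 5.85-fold (59.1 and 51.6 against 9.13 CPM, adjusted p = 0.000502). Six2, Pax2, Pax8 and Gdnf differed by 2.25 ± 0.28, 2.05 ± 0.27, 1.99 ± 0.29 and 1.94 ± 0.28 on the log2 scale, each with an adjusted p of at most 0.00146. Sall1 was 3.18-fold lower in AGM, at 46.2 and 42.9 CPM against 137 CPM (adjusted p = 0.000161). Marker lists differed as well: 3 of 5 limb and 6 of 6 red-cell genes were higher in AGM and none lower. Of 8 neural genes, 5 were lower in AGM and none higher. The part of these tissues in the members' differences was not tested.

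This comparison depended on which AGM libraries stood for E9.5. With those labelled E11.5 in their place, an alternative chosen after seeing the data, 3 members passed instead of 8, while calls over all 19945 genes went from 6759 to 1366. Pax8 was again higher in AGM (1.87 ± 0.29, adjusted p = 0.00724) and Lhx1 now passed (1.58 ± 0.23, adjusted p = 0.00513). Sall1 turned to 0.71 ± 0.16 (adjusted p = 0.0350), higher in AGM. Wt1 turned to -0.32 ± 0.16 and no longer passed (adjusted p = 0.291). Osr1, Emx2, Pax2, Six2 and Gdnf lay at 0.81, 0.55, 0.69, 0.01 and 0.06, none of them past the threshold.

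At E10.5, where the markers did not go against the AGM labels, the largest differences from skin E among the members were those of Wt1, Gdnf and Osr1. For Gdnf the skin sets differed: skin ES at E10.5, outside this fit, had 8.19 CPM, near the 10.7 and 8.71 CPM of AGM. In all, 7 members were higher in AGM and 2 lower, beside 24% of all genes passing (11.7% higher, 12.2% lower). Wt1 was 40.9-fold higher, at 86.4 and 78.0 CPM against 2.02 CPM in skin E (5.35 ± 0.20, adjusted p = 2.09e-06). Gdnf was 21.99-fold higher, at 10.7 and 8.71 CPM against 0.440 CPM, a value that rests on 10 counts in skin (4.46 ± 0.37, adjusted p = 8.93e-05). Osr1 was 20.7-fold higher (41.7 and 29.0 against 1.72 CPM, adjusted p = 8.06e-05) and Six2 12.48-fold (29.6 and 23.9 against 2.16 CPM, adjusted p = 0.000141). Emx2, Pax8 and Eya1 differed by 3.59 ± 0.24, 1.61 ± 0.26 and 0.81 ± 0.14. Lhx1 went the other way, 4.62-fold lower in AGM at 11.7 and 10.4 against 51.6 CPM (-2.21 ± 0.18, adjusted p = 7.45e-05). Sall1 was 2.73-fold lower in AGM (60.9 and 61.0 against 168 CPM, adjusted p = 0.000265). Pax2 was about level, at 28.8 and 22.8 against 19.7 CPM (0.40 ± 0.23, adjusted p = 0.246, and 0.0210 with the round as a block). In the same skin library Pax6 had 111 CPM and Sox1 81.9 CPM, and the part of neural tissue in its Lhx1, Pax2, Pax8 and Sall1 levels was not tested. Of 5 limb markers, 5 were higher in AGM at E10.5. The part of limb tissue in the Osr1, Six2 and Emx2 differences was not tested.

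**Figure D4:**
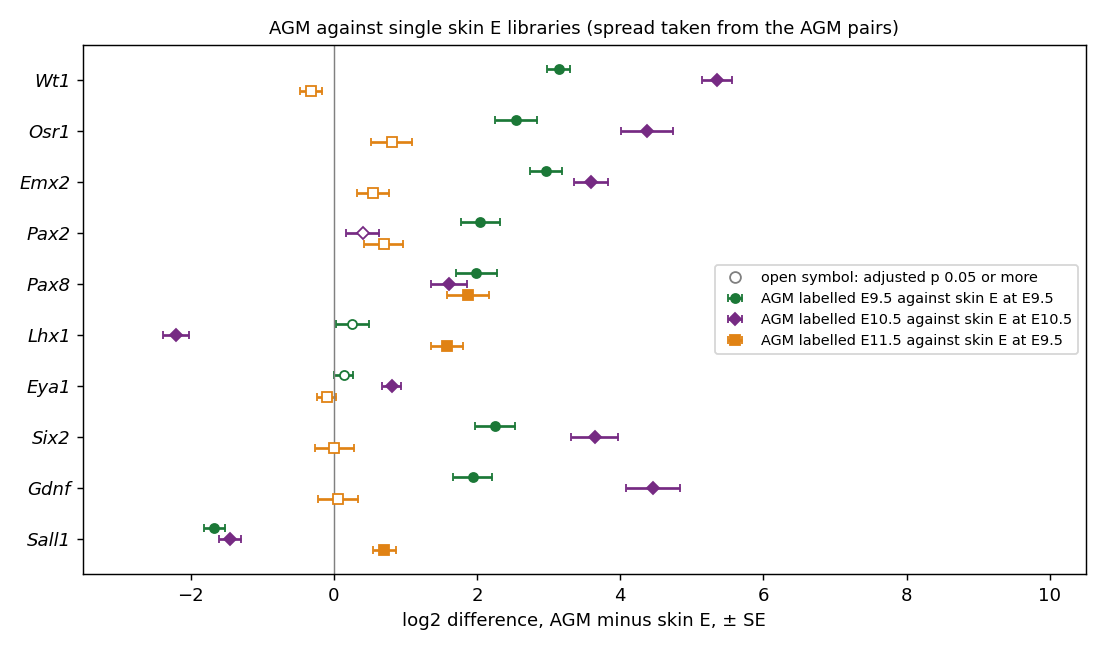
Log2 difference, AGM minus skin E (horizontal axis, ± SE), for the 10 genes: circles AGM labelled E9.5, diamonds AGM labelled E10.5, squares AGM labelled E11.5 set against skin at E9.5. Filled symbols have an adjusted p under 0.05, and Wt1 reaches 5.35 at E10.5 but lies at -0.32 with the libraries labelled E11.5.

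The difference between AGM libraries labelled E10.5 and E9.5 was set against that between skin E libraries of these labels by an interaction term, and 5 members passed, beside 7.67% of all genes (2.63% higher, 5.04% lower). The AGM difference was the more positive for Gdnf (2.52 ± 0.48, adjusted p = 0.0189), Wt1 (2.21 ± 0.25, adjusted p = 0.00311) and Osr1 (1.83 ± 0.46, adjusted p = 0.0488). It was the more negative for Lhx1 (-2.47 ± 0.29, adjusted p = 0.00392) and Pax2 (-1.64 ± 0.35, adjusted p = 0.0270). In AGM itself only Lhx1 of these passed, and it was higher at E10.5 (1.12). Pax2 lay at 0.28 in AGM, and Gdnf, Wt1 and Osr1 at -0.34, -0.37 and -0.59. The single skin E libraries differed: Wt1 was 12.1 CPM at E9.5 and 2.02 at E10.5, Pax2 5.17 and 19.7 CPM. In the same order Lhx1 was 4.27 and 51.6 CPM, Gdnf 3.21 and 0.440 CPM, and Osr1 9.13 and 1.72 CPM. Osr1 stood near the threshold and was lost when any single AGM library other than E10.5 round 2 was left out (adjusted p 0.0524 to 0.0738). It was also lost with median-of-ratios size factors (0.0508), without globin and mitochondrial genes (0.0514) and with limma-voom (0.142), where Gdnf was lost too (0.0635). Pax2 was lost without E9.5 round 1 (0.0615) and without E10.5 round 2 (0.0576). Six2 passed without E9.5 round 1 (0.0313). Eya1 and Six2, at 0.67 and 1.39, passed with the round as a block (adjusted p = 0.00502 and 0.0118). With the libraries labelled E11.5 in place of E9.5, Pax2 was lost (-0.29, adjusted p = 0.763) and Emx2, Six2 and Eya1 passed. Sall1 turned from 0.22 to -2.16 (adjusted p = 0.00143).

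Across the ages of skin E each age is 1 library, so there is no test. The ratios below carry exact 95% intervals that cover counting error only. From E9.5 to E10.5, the duct factors were higher at the later age: Lhx1 at 4.27 and 51.6 CPM (12.1-fold, 9.70 to 15.3), Pax2 at 5.17 and 19.7 CPM (3.81-fold, 3.07 to 4.76) and Pax8 at 1.86 and 3.92 CPM (2.11-fold, 1.42 to 3.19). Most mesenchyme and coelomic factors were lower at E10.5, but Sall1 was higher, at 137 and 168 CPM (1.23-fold, 1.17 to 1.29). Gdnf was 7.30-fold lower (3.72 to 15.9), Wt1 5.97-fold (4.34 to 8.38), Osr1 5.32-fold (3.75 to 7.72), Six2 4.21-fold (3.06 to 5.90) and Emx2 1.68-fold (1.22 to 2.33). The summed level of the neural genes was highest in the E10.5 library, with Dcx at 29.9 and 349 CPM, whereas Pax6 was 118 and 111 CPM and Sox1 91.8 and 81.9 CPM.

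At E12.5 the order was turned. Osr1 had 1.72 CPM at E10.5 and 107 CPM at E12.5 (62.5-fold, 45.6 to 88.0), Six2 2.16 and 63.2 CPM (29.3-fold, 22.1 to 39.8) and Emx2 2.95 and 47.8 CPM (16.2-fold, 12.7 to 21.1). These were above every AGM library for all 3 genes. Gdnf was 8.71-fold higher (4.53 to 18.8) and Wt1 3.42-fold (2.45 to 4.84). Lhx1 was 3.37-fold lower (2.99 to 3.79) and Sall1 2.37-fold lower (2.23 to 2.51). The summed limb level was highest in this library through Hoxd13 and Tbx5, while Shh was at 0.333 CPM against 25.7 at E9.5, and the part of limb tissue was not tested. Per kilobase of exon union, Osr1 led it at 51.9 CPM, before Six2 at 29.8 and Emx2 at 15.9.

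At E14.5 most members were low in skin E. Sall1 was 39.7-fold lower than at E12.5 (71.1 and 1.79 CPM, 29.0 to 55.8), Pax2 36.4-fold (13.04 and 0.358 CPM, 18.3 to 85.1) and Lhx1 28.5-fold (15.3 and 0.537 CPM, 16.1 to 55.7). Six2 was 17.9-fold lower (63.2 and 3.54 CPM, 14.3 to 22.7), Pax8 11.4-fold (5.32 to 29.3), Eya1 4.95-fold (4.11 to 5.99) and Emx2 3.87-fold (3.39 to 4.43). Osr1 stayed at 85.1 CPM, 1.26-fold below E12.5. Eya1 had 45.8, 38.3, 30.1 and 6.09 CPM from the youngest to the oldest age, each lower than the one before. Gdnf alone was higher at E14.5, at 3.83 and 8.77 CPM (2.29-fold, 1.78 to 2.97).

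In skin ES the 10 members together summed to 41.8 to 51.8 CPM, against 123 to 362 CPM in skin E and 286 to 413 CPM in AGM. Pax2 had 0 counts at all 4 ages, which allows up to 0.194 to 0.443 CPM (3 counts per library). Wt1 was at most 0.443 CPM and Pax8 at most 0.453 CPM. Gdnf lay above skin E of the same age at all 4 ages, with 6.01, 8.19, 9.16 and 14.8 CPM from the youngest to the oldest. Its E14.5 value was 1.62-fold above E12.5 (1.22 to 2.18). Emx2 was level at 7.09 to 7.94 CPM, above skin E at E9.5 (4.97 CPM) and at E10.5 (2.95 CPM). Osr1 at E10.5 was also above skin E (5.13 against 1.72 CPM), as was Lhx1 at E14.5 (1.23 against 0.537 CPM). Sall1 had 19.2, 18.2, 28.1 and 11.7 CPM, so at E14.5 it lay above the 1.79 CPM of skin E. Osr1 was 2.36 to 5.13 CPM, Eya1 2.27 to 4.20 CPM and Six2 1.33 to 1.88 CPM. These levels contrast with skin E, where Osr1, Emx2 and Six2 varied with age.

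Other kidney genes were counted from 6 lists, to be read beside all genes tested, of which 15.4% were lower and 11.8% higher at labelled E11.5 than at E10.5. Between the libraries labelled E11.5 and E10.5, 8 of 10 nephrogenic mesenchyme genes were lower, 1 was higher and 1 did not pass (median -0.92). Hoxc11 was lower by 2.20 ± 0.46 (adjusted p = 0.0102), at 1.65 and 0.557 against 7.30 and 3.80 CPM. Cited1, a marker of nephron progenitors, was the one that was higher (2.33 ± 0.21, adjusted p = 0.000249), at 21.2 and 17.3 against 4.20 and 3.95 CPM. Of 10 duct and ureteric bud genes, 4 were lower and none higher (median -0.22). Wnt9b, the duct signal that induces tubules, was at 1.57 and 1.30 against 10.2 and 8.02 CPM (-2.56 ± 0.22, adjusted p = 0.000175). Cdh16, a cadherin of kidney tubules and duct, had 0 counts at labelled E11.5 and was at least 75.8-fold lower than at E10.5, with a floor of 3 counts over the group. Ret, the Gdnf receptor, was level at 45.0 and 44.5 against 51.2 and 38.5 CPM, while its co-receptor Gfra1 was lower, at 10.52 and 11.6 against 35.6 and 31.6 CPM.

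The remaining lists were mixed. In the patterning and GDNF-RET control list 4 of 9 genes were lower, among them Slit2 (-1.04 ± 0.11, adjusted p = 0.000593). Of 10 nephron and tubule genes, 5 were lower and 3 higher, with Osr2 at -2.56 ± 0.22 (adjusted p = 0.000178) and Fgf8 at 1.55 ± 0.28 (adjusted p = 0.00502). Of 4 podocyte genes tested, 2 were lower and 1 higher, with Synpo at -2.76 ± 0.18 (adjusted p = 6.1e-05) and Podxl at 1.72 ± 0.11 (adjusted p = 5.6e-05). Among 11 partners and paralogues, 3 were higher and 3 lower. The Sall1 paralogue Sall3 was higher by 2.95 ± 0.26 (adjusted p = 0.000196), and the Eya1 paralogue Eya4 differed by -2.06 ± 0.12 (adjusted p = 3.95e-05). Podxl, Fgf8, Sall3 and Lef1 are also made in the neural tube or tailbud. At labelled E11.5, 5 of 5 tailbud and 6 of 8 neural markers were higher than at E10.5, and 2 neural markers were lower. The part of these tissues in the differences of the listed genes was not tested. Against the libraries labelled E9.5, where 24% of all genes were lower and 21.1% higher, the lower and higher counts were 5 and 2 for duct genes, 7 and 1 for mesenchyme, 6 and 1 for patterning, 6 and 2 for nephron, 3 and 1 for podocyte genes, and 1 and 3 for partners.

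**Figure D5:**
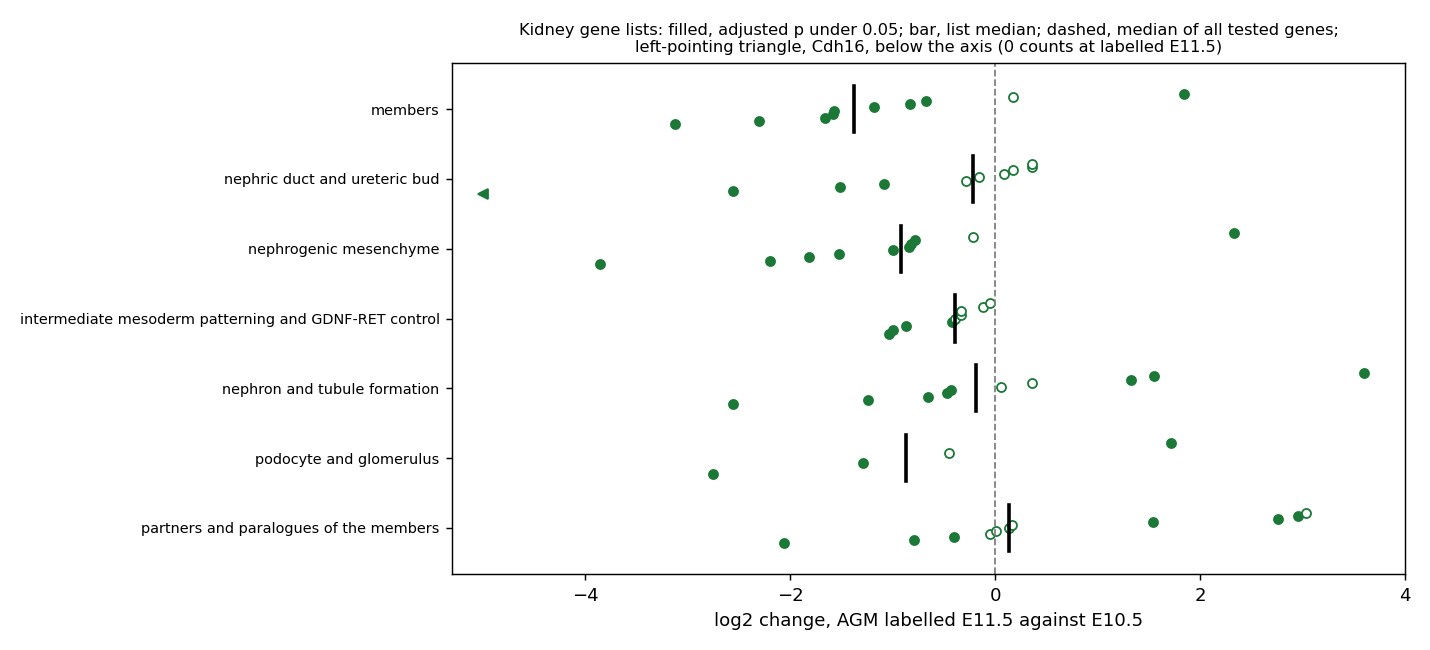
Log2 difference between the AGM libraries labelled E11.5 and E10.5 for the genes of each kidney list (rows), filled where the adjusted p was under 0.05, with a bar at the list median and a dashed line at the median of all genes tested. The members (median -1.38) and the nephrogenic mesenchyme genes (-0.92) lie mostly to the left.

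Between E10.5 and E9.5, where 2.59% of all genes passed, few of these genes did. Cdh16 was lower at E10.5 (-1.45 ± 0.23, adjusted p = 0.0311), at 5.79 and 4.07 against 15.3 and 12.7 CPM. Aldh1a2, which makes retinoic acid, was lower (-0.56 ± 0.10, adjusted p = 0.0320), as were Wnt4 (-0.93 ± 0.18, adjusted p = 0.0414) and Osr2 (-0.90 ± 0.17, adjusted p = 0.0390). Fgf8 (1.57 ± 0.32, adjusted p = 0.0493) and Dach1, a partner of the Eya proteins (0.56 ± 0.11, adjusted p = 0.0387), were higher. No nephrogenic mesenchyme gene passed. With the round as a block 5 of the 10 did, beside 4237 of all 17613 genes.

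Against skin E at E10.5, where 11.7% of all genes were higher in AGM and 12.2% lower, 9 of 10 duct genes were higher in AGM and Gfra1 was lower (-0.68 ± 0.14, adjusted p = 0.0092). Cdh16 was at least 37.2-fold higher, with no count in skin. In the nephrogenic mesenchyme list 6 of 10 were higher and none lower. Hoxd11 was at least 73.1-fold and Hoxc11 at least 41.7-fold higher. At E10.5, 5 of 5 limb markers were also higher in AGM, with Hoxd13 at 14.3 and 11.4 against 0.0880 CPM. So were 5 of 6 coelomic epithelium and gonad markers, with none lower, while 7 of 8 neural markers were lower and none higher. The part of these tissues in the differences of the listed genes was not tested. Of the 12 partners and paralogues 1 was higher and 5 lower. At E9.5, beside 18.0% of all genes higher and 15.9% lower, 8 duct genes and 6 mesenchyme genes were higher in AGM and 0 and 1 lower. With the libraries labelled E11.5 in place of those labelled E9.5, 3 duct genes and 2 mesenchyme genes passed, beside 1366 of all 19945 genes.

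Across the 10 AGM and skin E libraries, the genes whose log2(CPM + 1) profile was most like that of a member were found among 13727 genes. These correlations describe the 10 libraries, which share tissue and project. For Wt1 they were Ano4 (r = 0.989), Ros1 (0.982) and Tbx1 (0.972). For Six2 they were Fgfrl1 (0.986), Hoxa11 (0.980) and Gxylt1 (0.979). For Osr1 they were Patj (0.985), Cdh3 (0.984) and Itga5 (0.977), and for Gdnf Pgf (0.982), Ppfibp2 (0.977) and Cnn1 (0.968). Emx2 was most like Phka1 (0.981), Clcf1 (0.974) and Sdr39u1 (0.972). Pax2 was most like Pex19 (0.981), Nol4l (0.978) and Gba2 (0.973), and Pax8 like Rbpj (0.971). Eya1 was most like Strada (0.988), Mdk (0.975) and Hnrnpr (0.974), and Sall1 like Hapln1 (0.984), Rhpn1 (0.982) and Prdm4 (0.982). Lhx1 had the weakest matches, Tubb2b (0.937), Mgea5 (0.920) and its neighbour Lhx1os (0.907). Among pairs of members, the highest r were those of Six2 with Emx2 (0.894), Eya1 with Pax2 (0.873), Pax8 with Pax2 (0.871) and Eya1 with Pax8 (0.869). The lowest were Gdnf with Lhx1 (-0.65) and Sall1 with Osr1 (-0.64).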

How the data were processed

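The deposited table holds raw read counts per gene, made by the authors. The tools in the submitters' processing notes are featureCounts 1.6.0, STAR 2.5.0a, DESeq2 1.20.0 and Trimmomatic 0.36, with the genome GRCm38/mm10. The role and settings of each are not given in the sources used here. The 3 second-round AGM columns carry numbers without ages and were given the ages of the first-round numbers, which is an assumption. Differences were tested on the counts in R 4.3.3 by edgeR 4.0.16 (filterByExpr, TMM, quasi-likelihood test, Benjamini-Hochberg adjustment over all genes tested, called under 0.05). AGM ages were compared over the 6 AGM libraries, and tissues and the interaction over these and the 4 skin E libraries. Both fits had 3 residual degrees of freedom. CPM were computed from library totals, and lengths from the exon union of GENCODE M21. The tests were tried on simulated data.

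The round numbers pair libraries because the labels tie each round to a project. Deviations from the group means correlated within rounds at 0.408, 0.289 and 0.332 over 17613 genes.

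The members and lists were chosen with earlier results of these data known. All 10 members are named. From each other list and comparison, up to 2 genes with the largest change in each direction were eligible, among those called and with a mean of at least 1 CPM in the higher group. Ret, Gfra1 and genes named only for their direction or as markers were added after their values were seen. For likeness, the 3 genes of highest Pearson r were taken per member, leaving out predicted genes. Alternatives were DESeq2 1.42.0, its size factors (RLE), limma-voom (limma 3.58.1), no filter on low counts, the round as a block, globin and mitochondrial genes left out, all 14 libraries, other libraries in the fit, and each AGM library left out. Some genes that this rule names are not reported here. Sequence reads were not analysed here.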

Additional observations from a re-analysis of the deposited data

Results flagged for a closer look

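The difference between libraries labelled E10.5 and E9.5 was not the same in AGM and skin E for 5 members, by the interaction term of the edgeR fit. On the log2 scale, AGM difference minus skin difference, the values were 2.21 for Wt1, 1.83 for Osr1, 2.52 for Gdnf, -1.64 for Pax2 and -2.47 for Lhx1. Each skin age is 1 library. In AGM alone Lhx1 was higher at E10.5 (1.12) and the others of these did not pass. With the AGM libraries labelled E11.5 in place of those labelled E9.5, Pax2 no longer passed (-0.29, adjusted p = 0.763).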

How the results depend on the processing

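The counts of genes called were 457, 4791 and 7953 for the AGM comparisons (E10.5 against E9.5, labelled E11.5 against E10.5, labelled E11.5 against E9.5), 6759 and 4779 for AGM against skin E at E9.5 and E10.5, and 1530 for the interaction. With the replicate block (the round as pairing), counts were 4237 genes and 7 members, 8491 genes for labelled E11.5 against E10.5, 10234 and 8491 for the tissues, and 5137 for the interaction. With all 14 libraries in 1 fit, in which skin E and ES of an age were replicates, edgeR called 0 genes and 0 members in all 6 comparisons, while 27, 485, 1133, 950, 847 and 62 genes had an unadjusted p under 0.05. Gdnf in the interaction then turned to -0.36. E10.5 against E9.5 gave 929 genes and 4 members with DESeq2, and 1769 genes and 7 members without the low-count filter, and the interaction 2651 genes without the filter and 3 members with limma-voom. The libraries labelled E11.5 were set in place of E9.5 after seeing the data. AGM against skin at E9.5 then gave 1366 genes and 3 members, with Wt1 at -0.32 and Sall1 at 0.71. In the interaction Sall1 lay at -2.16. Leaving out 1 AGM library gave 1 to 477 genes and 0 to 2 members for E10.5 against E9.5, 2794 to 4566 and 8 to 9 for labelled E11.5 against E10.5, 5557 to 7548 and 8 for labelled E11.5 against E9.5, 4685 to 6457 and 8, and 3195 to 4675 and 9, for the tissues, and 930 to 1561 and 4 for the interaction. Scaling by total counts moved the median of all genes by -0.15 (log2) for labelled E11.5 against E9.5. Gdnf in skin E at E10.5 rests on 10 counts, which limits its precision.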
